A study of Mus musculus with 2 samples.

Results

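Molecular chaperones are proteins that fold, hold, sort or dispose of other proteins, and the genes taken here are those annotated mouse genes whose symbols begin with Hspa, Hspb, Hspd, Hspe, Hsph, Hsp90, Dnaja, Dnajb, Dnajc, or with Cct or Bag and a digit, plus Cryab, Unc45b and Tcp1, without names that hold -ps. Of 15508 annotated genes with reads, 84 met this rule, 81 of them in replicate 1, 83 in replicate 2 and 80 in both. The annotation holds 92 such genes, and the 8 that had no read were Cct6b, Cct8l1, Dnajb7, Dnajb8, Dnajc5b, Dnajc5g, Dnajc6 and Dnajc22. The samples were gastrocnemius, a calf muscle, of male mice aged 36 days of the strain B6CASTF1/J, the F1 cross of C57BL/6J with CAST/EiJ. They form 1 group of 2 biological replicates with 2 µg of RNA each. Their RNA was sequenced in long reads, and read counts were not divided by transcript length. There was no treatment, mutation or second condition, so the only comparison is between the libraries of the 2 animals, whose labels share 1 donor entry.

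Chaperones of the HSP70 family (Hspa genes) bind unfolded stretches of protein in cycles of ATP hydrolysis, which J proteins (Dnaja, Dnajb and Dnajc genes) start and nucleotide exchange factors such as the BAG and HSPH proteins end. HSP90 acts later, on nearly folded clients, while the chaperonins HSP60 (Hspd1, with its lid Hspe1) in mitochondria and CCT (Cct genes and Tcp1) in the cytosol enclose a client in a chamber. Small heat shock proteins (Hspb genes and Cryab) hold unfolding proteins without ATP and are known in skeletal muscle for binding desmin, filamin and titin at the Z-disc. Unc45b is the chaperone of the myosin head.

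The libraries held 1036455 (replicate 1) and 1374068 (replicate 2) reads in annotated genes, and CPM are counts scaled to 1000000 of them. A count of 0 allowed up to 2.89 and 2.18 CPM, and all intervals given cover counting error only. The tissue label was checked against 7 skeletal muscle markers, which were all detected and summed to 199860 and 185230 CPM. In sum, fibroblast markers were higher in replicate 1 (3175 against 793 CPM over 4 genes) and so were Schwann cell markers (929 against 333 CPM over 3 genes). Of the fibroblast markers Col1a1 and Col3a1 were called and Dcn was not, while Pdgfra went the other way with 4 and 7 reads. Adipocyte markers in sum were higher in replicate 2 (63.7 against 133 CPM over 3 genes, with Adipoq and Cfd called of 2 tested). Plin1, an adipocyte marker not tested, went the other way with 3 and 1 reads. The part of these other cells in the differences between libraries below was not tested. In whole tissue, fewer cells of a type and less RNA per cell cannot be told apart.

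The chaperone genes together took 8118 reads in replicate 1, which is 0.783% of gene reads (Wilson 95% interval 0.766 to 0.80%), and 9547 reads in replicate 2, which is 0.695% (0.681 to 0.709%). This is 7390 ± 625 CPM (SD, n = 2). A few genes carried most of it, and the 10 highest held 53.8% and 53.3% of the reads. The genes with Hspb symbols, taken with Cryab, were the largest family by reads, though 3 of them, given below, are not small heat shock proteins. The Hspb genes and Cryab (11 in all) summed to 1822 ± 85.5 CPM, the 13 Hspa genes to 1475 ± 321, the 8 CCT subunits to 883 ± 155, the 24 Dnajc genes to 765 ± 121 and the 3 Hsp90 genes to 694 ± 164 CPM. Below these came the 6 Bag genes at 438 ± 40.3, the 11 Dnajb genes at 398 ± 51.8, the 4 Dnaja genes at 380 ± 70.6, the chaperonin pair Hspd1 and Hspe1 at 350 ± 45.7, Unc45b at 155 ± 62.3 and Hsph1 at 31.1 ± 12.0 CPM. The distance between the first 2 families was not the same in both libraries. The Hspb genes and Cryab had 1762 CPM against 1702 for the Hspa genes in replicate 1, and 1883 against 1248 in replicate 2. First place also depended on whether the near-identical copies of Hspa8, given below, were counted with it. Hspa8 alone then had 1920 CPM in replicate 1, and the order of the 2 families there was reversed.

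**Figure D1:**
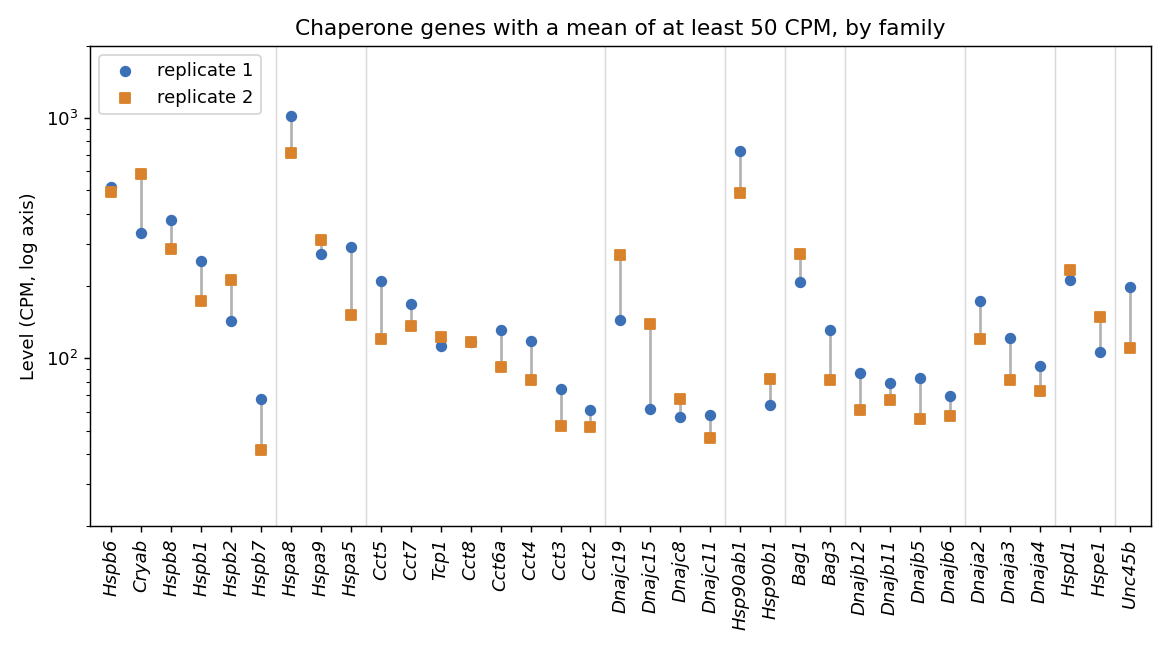
Level of the 35 chaperone genes with a mean of at least 50 CPM, on a log axis in CPM, with 1 point for each library (circles replicate 1, squares replicate 2) and grey lines joining the points of a gene. Vertical lines part the families, and Hspa8 stands highest at 1026 and 713 CPM.

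Among the HSP70 genes, the constitutive cytosolic form Hspa8 (chr9:40800984-40810087) led with 1063 and 980 reads, 869 ± 221 CPM, rank 110 of all genes. The mitochondrial form Hspa9, a part of the protein import motor, had 283 and 426 reads, and the endoplasmic reticulum (ER) form Hspa5, also called BiP, 300 and 209 reads. The heat-inducible forms were near the floor: Hspa1a had 16 and 4 reads and Hspa1b had 5 and 5, so Hspa8 held most reads of cytosolic HSP70 in both libraries. Hspa1a and Hspa1b are near-identical neighbours, and how the reads of the pair were split is uncertain. HSP90 showed the same order of forms. The constitutive Hsp90ab1 had 756 and 669 reads for a model of 2520 bases, and the inducible Hsp90aa1 had 18 and 12 reads for a model of 3281 bases, while the ER form Hsp90b1 had 66 and 113 reads.

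The small heat shock proteins were led by Hspb6 (HSP20), with 538 and 678 reads and 506 ± 18.1 CPM. Cryab, the alpha-B crystallin that binds desmin, had 343 and 808 reads, or 331 and 588 CPM. Hspb8, the partner of Bag3 in the removal of damaged filamin, followed with 390 and 390 reads, and Hspb1 with 263 and 237. Cryab thus stood below Hspb6 and Hspb8 in replicate 1 and above both in replicate 2, so the order at the top of this family did not hold beyond the spread. Hspb2, 148 and 290 reads, is the head-to-head neighbour of Cryab on chromosome 9, and the annotated starts of Hspb2-201 and Cryab-201 lie 614 bases apart. Hspb3, with which Hspb2 forms a complex, had 32 and 62 reads, and Hspb7 had 70 and 57. The Hspb symbols also take in 3 genes that are not small heat shock proteins in function: Hspbp1, an HSP70 exchange factor, with 30 and 28 reads, Hspb11, a subunit of intraflagellar transport, with 7 and 31, and Hspbap1 with 5 and 5.

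All 8 CCT subunits, which form the ring that folds actin and tubulin, were read. Their levels ran from 56.2 ± 6.44 CPM for Cct2 to 166 ± 63.3 CPM for Cct5, a 2.94-fold range for proteins that sit in the ring in equal numbers, with Cct7 at 152 ± 23.2, Tcp1 at 118 ± 6.63, Cct8 at 117 ± 0.301, Cct6a at 111 ± 27.9, Cct4 at 99.6 ± 25.6 and Cct3 at 63.3 ± 15.5 CPM. The mitochondrial chaperonin Hspd1 had 222 ± 15.8 CPM and its lid Hspe1 127 ± 29.9 CPM. Neighbours in the order of CCT subunits differed by less than the larger SD of the pair, except Cct7 from Tcp1 and Cct4 from Cct3. Cct5 was the highest subunit in replicate 1, at 210 CPM. In replicate 2 it had 121 CPM, below Cct7 at 136 and Tcp1 at 122 CPM, so its first place was not settled.

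Of the J proteins, Dnajc19 had the highest mean, with 150 and 370 reads, though Dnaja2 was above it in replicate 1. It is a part of the import motor of the mitochondrial inner membrane, where it acts on Hspa9, and its relative Dnajc15 had 64 and 191 reads. Both were higher in replicate 2. The cytosolic Dnaja2 had 179 and 165 reads, the mitochondrial Dnaja3 126 and 112, Dnaja4 96 and 100, and the ER membrane protein Dnajb12 90 and 84. Dnajb6, a suppressor of aggregation that is mutated in a limb-girdle muscular dystrophy, had 72 and 79 reads. Dnajb11, the J protein that serves Hspa5 in the ER lumen, had 82 and 92 reads, Dnajb5 86 and 77, Dnajc11, a mitochondrial membrane protein, 60 and 64, and Dnajc8, which is associated with the spliceosome, 59 and 93. Dnajb1, the J protein most often paired with inducible HSP70, had 13 and 8.

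Bag1, an exchange factor of HSP70, had 215 and 372 reads, and Bag3, which links HSP70 and Hspb8 to autophagy at the Z-disc, had 136 and 112. Unc45b had 206 and 152 reads, and its cofactor in myosin assembly, the methyltransferase Smyd1, 218 and 192. At the other end, 6 chaperone genes had fewer than 10 reads in sum and were not tested: Dnajc13 (2 and 4), Hspa4l (2 and 3), Dnajb3 (1 and 0), and Dnajb13, Hspa12a and Hspb9 (0 and 1 each).

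Near-identical copies held a large number of reads beside 2 of these genes. Gm15459 (chr5:5781615-5783555) is a processed pseudogene, an intronless copy, and its 1941 bases align to Hspa8 at 99.7% identity. It was listed with 926 reads in replicate 1 and 286 in replicate 2, all in 1 annotated single-exon model. Next to the 1063 and 980 reads of Hspa8 itself, the copy thus had nearly as many reads as the gene in replicate 1 and far fewer in replicate 2. With its copies added, Hspa8 came to 1990 and 1270 reads, or 1920 and 924 CPM, and the log2 ratio of replicate 2 to replicate 1 went from -0.52 to -1.05 (exact binomial test, adjusted p = 7.8e-93), past the 2-fold threshold used below. The ratio was then 0.481 (95% exact interval 0.448 to 0.517) in place of 0.695 (0.637 to 0.759). Whether the reads of the copy came from Hspa8 was not tested, so the level of Hspa8 carries this uncertainty.

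Hsp25-ps1 (chr13:45078498-45079127), an intronless copy of Hspb1, aligns to it at 99.4% identity over 630 bases and had 75 and 84 reads beside the 263 and 237 of Hspb1. Unlike the copy of Hspa8, it had a like number of reads in both libraries, and the log2 ratio of Hspb1 was -0.56 without and -0.48 with it. A retrogene copy of Hspe1 had 0 and 18 reads, Dnajc19-ps 0 and 5, and the other 5 copies of Hspa8, Dnaja1 and Dnajb6 between 0 and 4 reads a library. With all 9 copies added the chaperone genes came to 8801 and 7238 CPM.

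**Figure D2:**
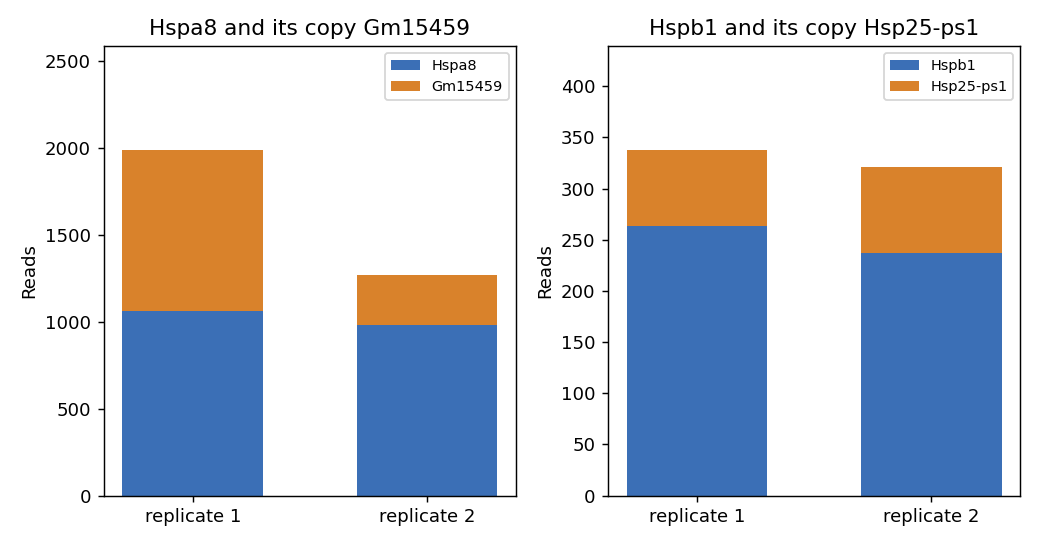
Reads of Hspa8 with its copy Gm15459 (left) and of Hspb1 with its copy Hsp25-ps1 (right), stacked for each library, with reads on the vertical axis. The copy of Hspa8 has 926 reads in replicate 1 and 286 in replicate 2, and that of Hspb1 has 75 and 84.

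The libraries were compared gene by gene with a two-sided exact binomial test over the 8339 annotated genes with at least 10 reads in sum, and a gene was called where it differed by 2-fold or more with an adjusted p under 0.05. The p-values compare these 2 libraries, not conditions. Of the 78 chaperone genes tested, 5 were called, beside 18.6% of all genes tested. At an unadjusted p under 0.05 there were 34, beside 3312 of the 8339 genes. Of the 5, 3 were higher in replicate 1 (12.9% of all genes) and 2 in replicate 2 (5.76%). Chaperone genes had a median log2 ratio of -0.41 and all tested genes -0.28. Scaling by TMM factors, which moved the median of all genes to 0.01 and that of the chaperone genes to -0.12, gave 7 calls, 2 higher in replicate 1 and 5 in replicate 2. All genes turned in the same way: 17.6% were called with TMM factors, 580 of them higher in replicate 1 and 890 in replicate 2.

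The 3 genes called higher in replicate 1 were Bag6, Dnajc5 and Hspa1a. Bag6, which guides tail-anchored proteins and faulty nascent chains, had 77 reads in replicate 1 and 35 in replicate 2 (log2 ratio -1.53, adjusted p = 6.8e-07 by the exact binomial test). For Hspa1a, the inducible HSP70, the log2 ratio was -2.28 (adjusted p = 0.0056 by the exact binomial test) on 16 and 4 reads. Dnajc5, the cysteine string protein of synaptic vesicles, had 40 and 26 reads and a log2 ratio of -1.02 (adjusted p = 0.023 by the exact binomial test), which is just past the 2-fold threshold and was -0.73 with TMM factors. Those higher in replicate 2 were Dnajc15, with 64 and 191 reads (log2 ratio 1.16, adjusted p = 6.4e-08 by the exact binomial test), and Hspb11, with 7 and 31 reads (log2 ratio 1.66, adjusted p = 0.0085). Dnajc4, Dnajc19 and Cryab were under the 2-fold threshold with totals as the scale and called with TMM factors. Dnajc4 had 19 and 50 reads and a ratio of 1.99 (exact interval 1.15 to 3.57), Dnajc19 a ratio of 1.86 (1.54 to 2.26) and Cryab one of 1.78 (1.56 to 2.02), and with TMM factors their log2 ratios were 1.25, 1.18 and 1.11. Removing the trend of the ratios on transcript length ended 4 of the 5 calls. The log2 ratio of Bag6 was then -0.88, of Dnajc5 -0.48, of Hspa1a -1.68 and of Hspb11 0.95, while Dnajc15 was still called at 1.72. For each gene the trend used 1 listed model length, 6193 bases for Dnajc15 and 607 for Hspb11, so these ratios depend on that length. With the trend removed 3 chaperone genes and 9.4% of all genes were called. By an edgeR exact test 0 chaperone genes were called, beside 5 genes (0.06%) of all tested. At an unadjusted p under 0.05 there were 1 chaperone gene and 323 of all genes. The spread in this test (common dispersion, a coefficient of variation of 0.395) was taken from the same 2 libraries as if they were replicates. It holds the difference under test, so few calls were built in, and their lack does not show that the libraries were alike.

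**Figure D3:**
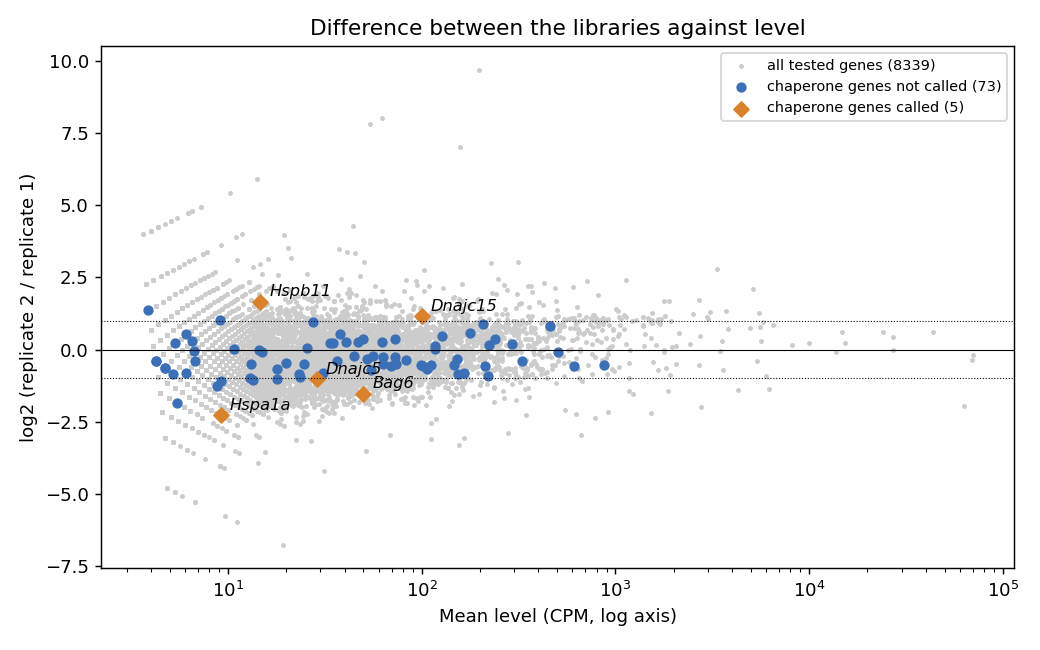
log2 ratio of replicate 2 to replicate 1 against mean CPM (log axis) for the 8339 tested genes in grey, the 73 chaperone genes that were not called as circles and the 5 called as diamonds with their names. Dotted lines mark the 2-fold threshold, and 51 of 78 chaperone genes lie below 0, where the median of all tested genes (-0.28) lies too.

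The libraries also differed in how complete the reads of a gene were. The deposited tables mark models that are incomplete (a piece of an annotated transcript) or genomic (not following its splice sites). The remaining classes, which are annotated transcripts and those with a new combination of known splice sites or a new junction, are called splice-complete here. Incomplete models held 7.63% of chaperone reads in replicate 1 (7.07 to 8.22%) and 14.1% in replicate 2 (13.5 to 14.9%), beside 11% and 16.1% over all annotated genes. Genomic models held another 2.53% and 8.92% of chaperone reads, near the 3.47% and 8.23% over all annotated genes. Among the 36 chaperone genes that reached 50 reads in both libraries, 36 had a higher share of incomplete and genomic reads in replicate 2, against 84.5% of the 1834 genes that met the same minimum.

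Hsp90b1 had the highest such share in replicate 2, 78.8% against 25.8% in replicate 1. Its 18-exon model Hsp90b1-201 had 47 and 24 reads, while a 2-exon model of 409 bases at its 3′ end had 11 and 77. For Hspa9 the share was 19.4% and 61.7%. The 17-exon model Hspa9-201 had 223 and 161 reads, and 167 reads of replicate 2 lay in a model listed at 1 base at the 3′ end. Hsp90ab1 likewise had 0 and 87 reads in a model listed at 1 base, and such models held 14 and 283 chaperone reads in all. Hspd1 had 144 and 114 reads in Hspd1-201 and 10 and 138 in single-exon models at its 3′ end. In each of these genes replicate 1 had more reads of the whole transcript and replicate 2 more reads of the 3′ end.

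The direction of some genes depended on which models were counted. Hspa9 had a log2 ratio of 0.18 over all models and -0.71 over splice-complete models alone. The same pair of values was 0.14 and -0.53 for Hspd1, 0.36 and -1.25 for Hsp90b1, and 0.00 and -0.22 for Cct8. The other 32 of the 36 genes kept their sign. Over those models alone 11 of 72 tested chaperone genes were called, beside 24% of all genes, and the additions were Dnajb5, Dnajb12, Hsp90b1, Hspa5, Hspb7 and Unc45b, all higher in replicate 1. TMM factors on the same models turned the balance, with 12 calls, 3 higher in replicate 1 and 9 in replicate 2, beside 22.5% of all genes. Over all genes the calls turned in the same way, from 1280 higher in replicate 1 and 351 in replicate 2 to 538 and 994. On these splice-complete models TMM factors ended the calls of Dnajb5, Hsp90b1, Hspa1a, Hspa5, Hspb7 and Unc45b. Unc45b had 180 and 90 reads in such models, Hspa5 282 and 147, and Dnajb12 75 and 30. Among the 7 chaperone genes with at least 50 reads in sum and a leading model of 946 bases or less, the share of incomplete and genomic reads varied. It was 0.583% and 2.97% for Cryab, 2.66% and 3.80% for Hspb1, 2.73% and 4.41% for Hspe1, 6.76% and 7.93% for Hspb2, 8% and 14.1% for Dnajc19, and 26.3% and 46% for Dnajc4. Hspb3 had 0 of 32 and 0 of 62 such reads, which allows up to 3 reads.

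**Figure D4:**
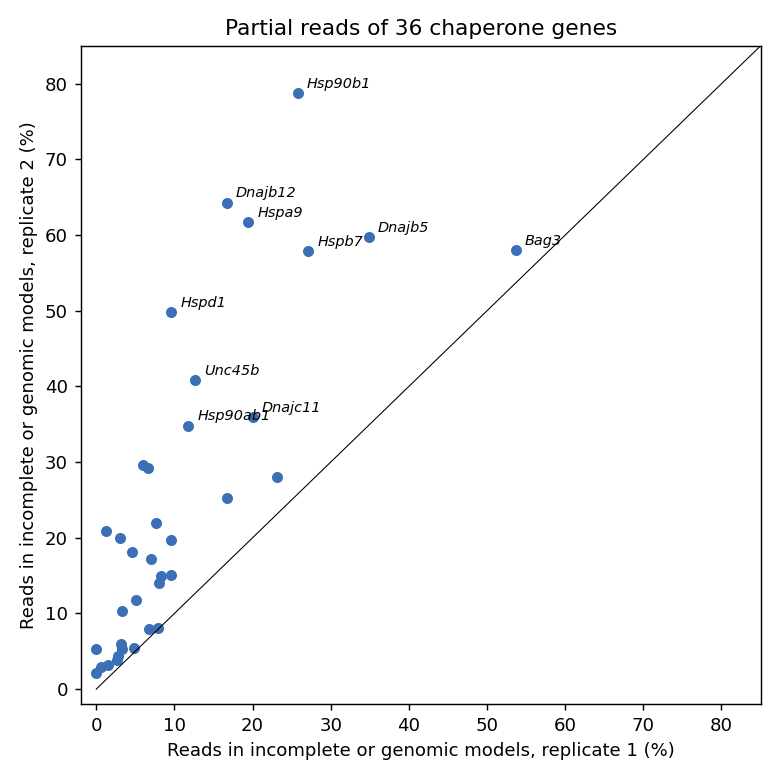
Share of reads in incomplete or genomic models in replicate 1 (horizontal, percent) and replicate 2 (vertical, percent) for the 36 chaperone genes that reached 50 reads in both, 1 point a gene, with the line of equal shares. All 36 points lie above the line, and Hsp90b1 is highest at 78.8%.

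Among these 36 genes Bag3 stood apart in this measure, with a high share of 53.7% and 58.0% in both libraries. Its 4-exon model Bag3-201 had 62 and 47 reads, and a model of the last 2 exons, 1590 bases long and read to the same 3′ end (chr7:128542011-128546981 in replicate 1), had 59 and 44. The ratio of these 2 models was alike in both libraries, unlike that of Hspa9 or Hspd1. Whether the 2-exon model is a transcript of its own or a truncated read was not tested. Some genes with fewer reads also had a high share in both libraries. Among them, Bag6 (77 and 35 reads) had 44.2% and 54.3%, and Dnajc27 (23 and 19 reads) had 56.5% and 52.6%.

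The leading isoform of a gene, the model with the most reads, was compared between libraries with a two-sided Fisher exact test. Of the same 36 chaperone genes 15 were called at an adjusted p under 0.05, beside 36% of the 1834 genes tested. In 12 of the 15 the leading model had a lower share in replicate 2. They were Cct3, Cct7, Cct8, Hsp90ab1, Hspa5, Hspa8, Hspa9, Hspb6, Hspb7, Hspb8, Hspd1 and Unc45b, and the shares of Hspa8-201, for one, were 91.9% and 77.4% (adjusted p = 8.9e-19 by Fisher's exact test). The other 3, Dnajb5, Dnajb12 and Hsp90b1, were led by a short 3′ model whose share was higher in replicate 2. The directions of all 660 genes called are not given here, so these counts are not shown to be particular to chaperone genes. With splice-complete models alone, 0 of 30 chaperone genes were called by Fisher's exact test (0 at an unadjusted p under 0.05), beside 3.12% of 1443 genes. Hspa8-201 then held 99.5% and 99.2% of the reads of its gene, Hsp90ab1-201 98.8% and 98.2%, and Hspb8-201 99.7% and 100%.

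An annotated model led in 32 of the 36 genes. For Cct6a the leading model was not in the annotation: a 13-exon model of 2548 bases with 111 of 136 reads in replicate 1 and 92 of 126 in replicate 2. Its intron at chr5:129794561-129844936, 50376 bases long, was in 116 and 102 reads and is not annotated, nor is a second intron at chr5:129794605-129844969, with 10 and 9 reads. The 3 introns over 10000 bases that the annotation gives for Cct6a had 0 reads in both libraries, the nearest of them being chr5:129794500-129844969. The new intron differs from this one by a shift of both ends, and both libraries held it.

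Chaperone reads fell on 803 structures, of which 426 had a single read and 288 were in both libraries. Beyond the leading model, 6 choices between splice forms were counted in all spliced reads that showed either form. Reads of a single exon were left out. The choices were picked after their values were seen and carry no test. Dnaja3 ends in either of 2 coding sequences. Reads with the extra exon of Dnaja3-201 were 37 of 118 in replicate 1 (31.4%, Wilson 95% interval 23.7 to 40.2%) and 26 of 107 in replicate 2 (24.3%, 17.2 to 33.2%), and the rest joined the exon before it to the last exon as in Dnaja3-202. The coding ends of both forms are shown because they give the protein its alternative tails, from GENCODE M21 transcripts on mm10, plus strand, with the stop codon in capitals. That of Dnaja3-201 is at chr16:4705844-4705947 and that of Dnaja3-202 at chr16:4706568-4706590.
Dnaja3-201: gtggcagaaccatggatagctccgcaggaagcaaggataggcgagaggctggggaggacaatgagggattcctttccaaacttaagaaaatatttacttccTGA
Dnaja3-202: gaaagcggtcaactggaaacTAA

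Dnajb6 is known to make a long nuclear and a short cytosolic protein. Reads of the short form, which run past the end of exon 8 into the intron as in Dnajb6-203, were 11 of 60 in replicate 1 (18.3%, 10.6 to 29.9%) and 19 of 57 in replicate 2 (33.3%, 22.5 to 46.3%). The others held the junction over that intron, chr5:29766396-29781129, as in the long form Dnajb6-201. The long form was the more frequent in both libraries, and the intervals of the libraries overlapped. The coding bases that are particular to the short form lie at chr5:29766396-29766430, plus strand, with the stop codon in capitals.
Dnajb6-203: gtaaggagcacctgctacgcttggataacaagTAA

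In Dnajb12 exon 8 ends at an inner or an outer splice site, and the choice sets the stop codon. The inner site of Dnajb12-205 was used in 32 of 64 reads in replicate 1 (50%, 38.1 to 61.9%) and 21 of 36 in replicate 2 (58.3%, 42.2 to 72.9%), against the outer site of Dnajb12-204. A site between them, that of Dnajb12-201, was not counted here (13 and 6 reads in that model). Both intervals include 50%. The outer form stops at once within exon 8, at chr10:59896448-59896471, and the inner form reads on into the last exon to a stop at chr10:59897491-59897520, plus strand, stop codons in capitals.
Dnajb12-204: gtgcaggcctccctgcatggaTAG
Dnajb12-205: actatgaaatccctggagaatttttggTGA

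Hspd1 has a distal first exon, annotated for Hspd1-202, which was joined to the shared second exon in 51 of 197 reads in replicate 1 (25.9%, 20.3 to 32.4%) and 45 of 159 in replicate 2 (28.3%, 21.9 to 35.8%). Most of these reads were in an unannotated 12-exon combination of 49 and 44 reads that keeps the rest of Hspd1-201. In Hspa5 the first intron of 82 bases (chr2:34772147-34772228) was kept, as in Hspa5-202, in 88 of 283 reads (31.1%, 26 to 36.7%) and 39 of 146 (26.7%, 20.2 to 34.4%). Spliced reads of Dnajb2 kept the intron after exon 9, as in Dnajb2-210, in 18 of 34 (52.9%, 36.7 to 68.5%) and 10 of 31 (32.3%, 18.6 to 49.9%). A genomic model of a single exon (chr1:75243661-75245692) covers this intron too, with 6 and 34 reads. It was not counted, so the order of the libraries for Dnajb2 is not settled. In each of the 6 choices the intervals of the libraries overlapped.

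**Figure D5:**
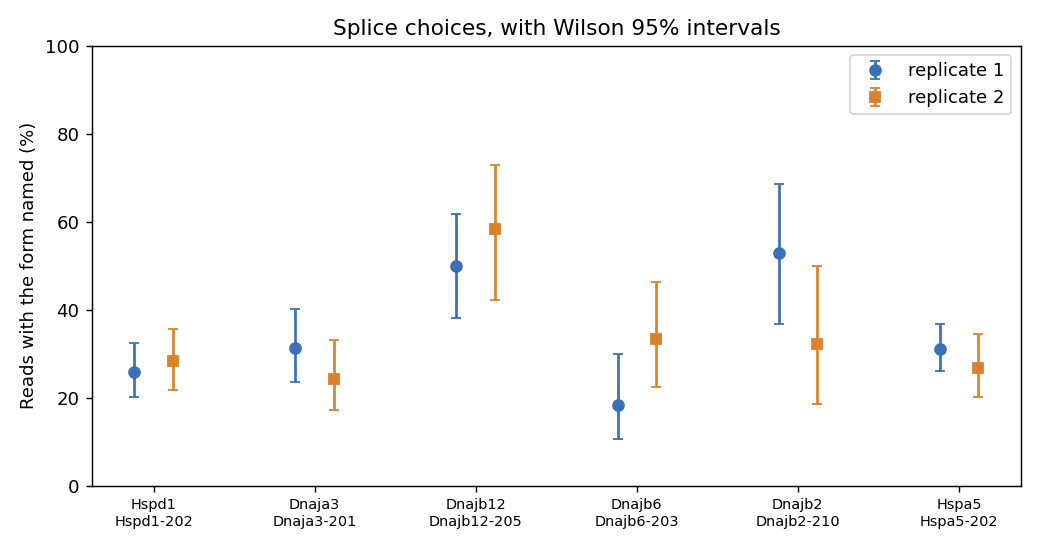
Share of spliced reads (percent) that show the form of the transcript named under each gene, out of the spliced reads that show that or the other form, with Wilson 95% intervals, for replicate 1 (circles) and replicate 2 (squares). The Hspd1 choice is at 25.9% and 28.3%, and the intervals of both libraries overlap in each gene.

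Promoters were searched for the heat shock element, the sequence bound by heat shock factor, as 3 units of GAA and TTC in turn, in either order and with 2 bases between units, which covers both strands. RefSeq promoter windows on GRCm38.p6, from 250 bases before to 50 after a start, were given for 69 of the 84 chaperone genes. Of these 4 held a match (5.80%), Dnajb6, Hspd1, Hspe1 and Hsph1, beside 179 of 27025 genes (0.662%). Hspd1 and Hspe1 lie head to head, with the starts of Hspd1-201 and Hspe1-201 108 bases apart, and the same element falls in the windows of both. They are shown on the strand of Hspe1 and of Dnajb6, with the element in capitals. The Hspe1 stretch is chr1:55088053-55088082 and holds 2 overlapping matches, and that of Dnajb6 is chr5:29735844-29735873.
Hspe1: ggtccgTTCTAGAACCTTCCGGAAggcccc
Dnajb6: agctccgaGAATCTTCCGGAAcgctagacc

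The first match starts 89 bases before the start of Hspe1 and 46 bases before the first listed start of Dnajb6. The pair that shares an element did not have equal levels over all models. Hspd1 had 211 and 234 CPM and Hspe1 106 and 148 CPM. The ratio of replicate 2 to replicate 1 was 1.11 for Hspd1 (exact interval 0.928 to 1.32, which includes equal levels). For Hspe1 it was 1.40 (1.10 to 1.78). With splice-complete models alone Hspd1 had 223 and 155 CPM and Hspe1 121 and 188 CPM, so the order of the pair turned in replicate 2. A match is a run of letters and not a measured site, and no match says only that these letters are not in the window. No promoter window was used for Cryab and Hspb2.

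The proteins that work with chaperones were taken from lists, whose calls stand beside 18.6% of all genes tested. The counts of the lists at an unadjusted p under 0.05 stand beside 3312 of 8339 genes. Of 12 textbook targets of heat shock factor among the chaperone genes, 1 (Hspa1a) was called by the exact binomial test, higher in replicate 1, and the list's median log2 ratio was -0.54. Of 10 chaperones that guard the Z-disc and filaments 0 were called (7 at an unadjusted p under 0.05), with a median of -0.34 and 2103 ± 25.2 CPM in sum. Among heat shock factors, Hsf1 had 72 and 52 reads and its inhibitor Hsbp1 176 and 347, and 0 of 4 tested genes were called (2 at an unadjusted p under 0.05 by the exact binomial test). HSP90 cofactors had 1 of 17 called, Unc45a with 11 and 3 reads, with a median of -0.18, and HSP70 cofactors 1 of 11, Hyou1 with 17 and 6 reads, with a median of -0.71. Prefoldin, which hands actin and tubulin to CCT, and the CCT cofactors had 0 of 9 called (4 at an unadjusted p under 0.05 by the exact binomial test), with a median of 0.64.

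In the ER folding and unfolded protein response list 3 of 15 were called, a share near the 18.6% of all genes, with Pdia4 (25 and 12 reads) and P4hb higher in replicate 1 and Ddit3 (8 and 29 reads) in replicate 2. P4hb, a protein disulfide isomerase that is also a subunit of collagen prolyl hydroxylase, had 224 and 117 reads (log2 ratio -1.34, adjusted p = 1.3e-15 by the exact binomial test), and Hspa5 had a log2 ratio of -0.93 without a call. Fibroblast markers in sum were lower in replicate 2 too, and their part in this was not tested. Of mitochondrial proteases and folding factors 2 of 8 were called beside the same 18.6%, both higher in replicate 1: the unfoldase Clpx (106 and 57 reads, log2 ratio -1.30) and the protease subunit Afg3l2 (96 and 58 reads, -1.13). Partners and clients of chaperone-assisted autophagy, among them Flnc (123 and 143 reads) and Des (3300 and 5368), had 0 of 6 called (4 at an unadjusted p under 0.05 by the exact binomial test) and a median of -0.09. These medians stand beside -0.28 for all genes tested.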

How the data were processed

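Long-read RNA sequencing was analysed in 2 libraries of 1 group. The deposited tables give whole-number read counts per transcript model, raw and not pooled, and per the file headers models were assigned on mm10 with GENCODE M21 and TALON. The deposited tables and annotations also give each model's length, exon number and exon positions. The sources used here do not name the aligner. The models of each annotated gene were summed to gene counts, without spike-ins, and CPM were scaled to 1000000 gene reads.

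The chaperone genes, gene lists and tests were chosen with earlier results of these data known. Genes with at least 10 reads in sum were compared with a two-sided exact binomial test given the library totals (scipy 1.17.1), with Benjamini-Hochberg adjustment over all genes and 0.5 reads added for log2 ratios. edgeR's quasi-likelihood test has no residual degree of freedom with 1 library a side. Leading isoforms, matched by their splice junctions, were compared by Fisher's exact test where both libraries had at least 50 reads of the gene. Genes were named at a mean of at least 50 CPM, when called with at least 50 reads in sum, or when the leading isoform was called. Hspa1a and Hspb11, called with fewer reads, and genes of low level were named after their values were seen. TMM factors and an exact test came from edgeR 4.0.16, size factors from DESeq2 1.42.0. Near-identical copies were other genes with reads, annotated as processed pseudogenes or retrogenes, that aligned to a chaperone transcript over at least 200 bases at 95% identity or more (minimap2 2.31). The tests were checked on simulated counts that held counting error and planted changes only. That check cannot show how the tests behave where libraries differ beyond counting error. The alternatives are given in the closing section.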

Additional observations from a re-analysis of the deposited data

Results flagged for a closer look

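The reads of 3 genes or models outside the chaperone genes rose above the 3 reads that a count of 0 allows in both libraries. Gm15459, the intronless copy of Hspa8, had 926 reads in replicate 1 and 286 in replicate 2, and Hsp25-ps1, the copy of Hspb1, had 75 and 84. Unannotated models antisense to exons of Dnajc18, a J protein of the ER membrane with 16 and 15 reads of its own, had 14 and 32 reads. Antisense models over exons of 26 chaperone genes had reads, and only Dnajc18 passed 3 reads in both libraries. There were no control samples to set these values against.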

How the results depend on the processing

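The summed level of the chaperone genes, 7390 CPM, was 7648 CPM with splice-complete models alone, 7038 CPM with all mouse reads as the denominator and 6948 to 7833 CPM with 1 library left out, which are the values of the single libraries. It went to 8020 CPM with near-identical copies added, an alternative chosen after seeing the data. The 5 calls between libraries became 11 with splice-complete models alone, 12 with these models and TMM factors (also chosen after seeing the data), 3 at a minimum of 50 reads, 3 with the trend on transcript length removed and 0 by the edgeR exact test (1 at an unadjusted p under 0.05). TMM factors and DESeq2 size factors each gave 7, copies added 6, 2 reads added 4 and a minimum of 1 read 5. Over all genes the count of 1555 became 763 with the length trend removed, 850 at 50 reads and 5 by the edgeR exact test. The spread of the edgeR test came from the same 2 libraries, so few calls by it were built in. Of 48 ratios of the 5 called genes under these settings 35 were still called, 13 were not and 0 were reversed. The minimum of 1 or of 50 reads and the added copies cannot move these ratios, so their part of the 35 says little. The trend setting called Dnaja1, Dnajc15 and Hspb1. The 15 calls of leading isoforms became 0 with splice-complete models alone and 18 at 20 reads. The share of chaperone reads in incomplete models was likewise 7.63 to 14.1% in the single libraries. Of 37 named levels, 11 moved by more than 1 SD with splice-complete models alone. No paired analysis was possible because the samples form 1 group. With 2 libraries, a gene under about 3 reads cannot be told from one at 0.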
